A study of Mus musculus with 8 samples.

Results

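Neutrophils from peripheral blood (PB) were compared with neutrophils from bone marrow (BM), all taken from mice that had received LPS. Of the 16 plates of single cells in the series, 7 held LPS-primed cells, 4 of PB with 363 cells and 3 of BM with 271 cells, together 634 of 1421 cells. Plates were assigned by tissue and treatment alone, and no expression value entered that choice. The animals were male C57BL/6J mice, 7 to 12 weeks old per the study's methods, given LPS intraperitoneally at 0.5 mg/kg, and the cells were prepared 4 h later with an EasySep Mouse Neutrophil Enrichment Kit and picked singly by mouth pipette. The 9 plates of PBS-primed cells, 4 of PB and 5 of BM, served as a second contrast between the tissues. The labels name no genetic change in the animals of either treatment. The PBS samples are labelled 0 h and the LPS samples 4 h, while the methods describe preparation 4 h after either injection. Transcripts were read by SCRB-seq, in which every captured mRNA carries a unique molecular identifier (UMI) so that amplified copies are counted once. Batch 6 of the authors' annotation held 2 PB plates and 1 BM plate, and batch 7 held 2 plates of each tissue. Per-plate values below follow that order, batch 6 before batch 7. The batch 7 plates match labelled samples, whereas the batch 6 plates are placed by the group in their column names and the authors' annotation. Nothing in the labels ties a plate to an animal, so p-values measure the spread between plates, which may be technical.

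Neutrophils are made in the marrow, where granule proteins are stored in the order in which they are produced: azurophil granules first, then specific and gelatinase granules, then secretory vesicles. Mature cells leave through loss of CXCR4-dependent retention and gain of CXCR2 signalling, and infection releases stored and less mature cells into blood. LPS, a component of Gram-negative bacterial walls, is sensed through CD14 and TLR4. One arm of that receptor acts through MyD88 and NF-kB and induces cytokines and chemokines, and the other acts through TRIF, IRF3 and type I interferon and induces antiviral genes.

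The 7 plates held between 5885183 and 12020616 UMIs. The median of a plate was 76890 ± 32070 UMIs per cell in PB (SD, n = 4) and 70360 ± 5383 in BM (n = 3), a difference within the spread of plates (two-sided exact permutation p = 0.857). With every cell thinned to 5000 UMIs, 680 ± 64.5 genes were detected per PB cell and 779.7 ± 16.9 per BM cell, where the 4 PB plates lay below the 3 BM plates and p = 0.0571 is the smallest an exact permutation test of this design can give. The summed level of 10 neutrophil markers was 276900 to 355300 counts scaled to CPM (UMIs of each 1000000 in a plate) in PB and 300700 to 348000 in BM, so both tissues carried the labelled cell type. Of 12 hepatocyte markers, 4 were called higher in PB (Apoc1, Ttr, Mup3 and Trf), and their summed level was 1190 to 1342 CPM in the PB plates of batch 7, 153.2 to 159.2 in those of batch 6 and 22.6 to 95.8 in BM. Cd74 of the B cell list was called higher, with the list at 41.2 to 264.6 CPM in PB and 0.644 to 2.08 in BM, while Igkc, Ighm and Jchain were at 0 or in fewer than 10 cells. Adgre1 of the monocyte and macrophage list was called higher, with the list at 102.7 to 245 CPM in PB and 30.5 to 114.3 in BM, while Cx3cr1, C1qa, C1qb and C1qc were at 0 or in fewer than 10 cells. The part of these transcripts in the results below was not tested, except where values without the cells that carry hepatocyte markers are given.

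LPS-primed PB and BM neutrophils differed in 475 of the 8045 genes tested (5.9%), of which 413 were higher in PB (5.13%) and 62 lower (0.771%). UMIs were summed per plate and tested with edgeR's quasi-likelihood test with batch as a term and TMM scaling, and a gene was called at a Benjamini-Hochberg adjusted p below 0.05. All 4 PB plates lay above all 3 BM plates in 824 genes (10.2%) and below them in 789 (9.81%), and this held for 401 of the 413 genes called higher and 61 of the 62 called lower. All 413 higher genes kept their direction within batch 7 and 410 did within batch 6, and the 62 lower genes kept theirs in both. The genes were called from these same plates, so their directions within a batch are no separate test. Batch 6 had 1 BM plate. The count of lower genes rested on the scaling. With library size alone the median log2 fold change over the tested genes moved from -0.15 to -0.70, and 269 genes were called higher and 219 lower, so the share of higher calls went from 86.95% to 55.1%. Under both scalings 331 genes were called, 269 higher and 62 lower. A log2 fold change below is given on the TMM scale, PB over BM, with its standard error.

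**Figure D1:**
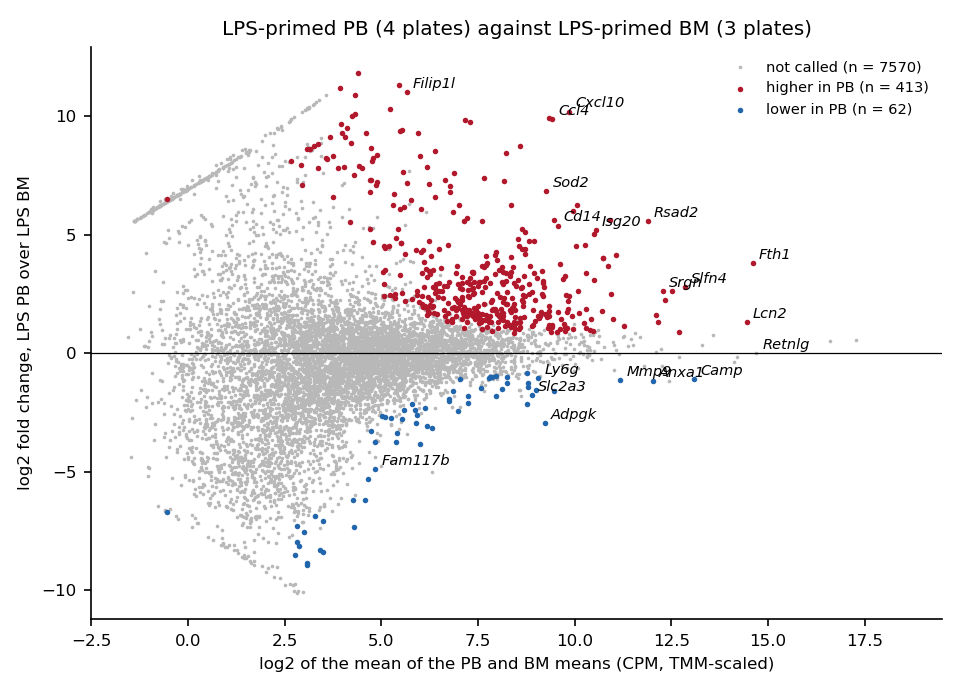
Log2 fold change of LPS-primed PB over LPS-primed BM neutrophils (vertical) against the log2 mean level in CPM (horizontal) for the 8045 genes tested, with 413 genes called higher in PB in red and 62 called lower in blue. Fth1 and Lcn2 are the red points at the highest levels, and points in diagonal lines at the left are genes with almost no UMI in one tissue.

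Chemokine and cytokine genes were among the widest differences between the tissues. Cxcl10, which encodes a chemokine that attracts CXCR3-bearing lymphocytes, had 1214, 1530, 2224 and 2427 CPM in the PB plates and 3.49, 0.833 and 0.621 in BM. The groups were far apart in either batch, and the log2 fold change was 10.19 ± 0.75 (edgeR adjusted p = 0.000128). The chemokine genes Ccl4 and Ccl3 behaved alike. Ccl4 had 1637, 787, 1098 and 1930 CPM in PB against 5.44, 0 and 0.444 in BM (log2 fold change 9.86 ± 1.22). Ccl3 had 803.3, 612.1, 539.9 and 438.5 CPM in PB against 2.57, 0.278 and 2.04 in BM (8.44 ± 0.63). No BM plate came near a PB plate for either gene. Cxcl2, a CXCR2 ligand that recruits further neutrophils, rose from 13.4, 60.5 and 30.2 CPM in BM to 1577, 977.3, 693.9 and 580.2 in PB (4.74 ± 0.65). Il1b, which encodes interleukin-1 beta, was the most even of these genes among PB plates, with 3438, 3187, 3739 and 3404 CPM against 249.9, 340.2 and 239.9 in BM (3.66 ± 0.22, adjusted p = 5.28e-05). Tnf differed less, at 163.4, 237.1, 108 and 104.1 CPM in PB and 64.5, 37.5 and 37.5 in BM (1.55 ± 0.31, adjusted p = 0.0172), and with library size alone its adjusted p was 0.0968. Il10, Il1a and Cxcl3 missed the threshold, each seen in fewer than 10 thinned PB cells, with 238, 484 and 482 UMIs over the PB plates against 1, 0 and 1 over the BM plates.

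Of 40 tested NF-kB targets and inflammatory mediators, 28 were higher in PB (5.13% of all genes) and 0 lower, and the median log2 fold change of the list was 3.67 against -0.15 over all genes. The list takes in feedback inhibitors as well as mediators. Nfkbia, encoding the inhibitor that holds NF-kB in the cytoplasm, had 3888, 3415, 2888 and 2520 CPM in PB and 124, 225.2 and 250.9 in BM (4.02 ± 0.34, adjusted p = 0.000208). Tnfaip3, encoding the ubiquitin-editing inhibitor A20, had 198.1, 187, 241.2 and 171.4 CPM in PB against 1.44, 31.4 and 5.86 in BM (4.54 ± 0.92). Il1rn, the interleukin-1 receptor antagonist, rose with Il1b, at 3962, 3724, 2521 and 2596 CPM against 156.1, 254.5 and 158.3 (4.01 ± 0.31). These inhibitor genes were high in all PB plates and low in all BM plates. The genes of the transcription factor itself were less uniform. Nfkb2 and Relb were called higher, while Nfkb1 had a log2 fold change of -0.01 ± 0.29 (adjusted p = 0.99) and Rela one of 0.66 ± 0.47 (adjusted p = 0.494). Under library size alone 23 of the 40 were called, all higher.

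Other genes with wide differences and a UMI in at least 20% of the cells of each PB plate, counted before any thinning, were Saa3, Nr4a1, Ccrl2, Smpdl3b, Gbp5, Bcl2a1a, AW112010 and Filip1l. Like Cxcl10 and Ccl4, they were chosen among called genes with at least 50 CPM and no overlap of plates in either batch. Their lack of overlap is therefore no separate result. Saa3, an acute-phase serum amyloid A gene that is also expressed by myeloid cells, was the most uneven of the 8, at 304.7, 3159, 222.1 and 1479 CPM in PB against 3.29, 0.463 and 0.444 in BM (9.92 ± 1.25, adjusted p = 0.00137). Its PB plates spread by more than 10 times. Nr4a1, an immediate-early nuclear receptor, had 241.7, 380.8, 311.6 and 212 CPM in PB and 1.03, 0 and 0 in BM. Ccrl2, a receptor that binds chemerin without signalling, had 300.2, 318.6, 253.4 and 371.8 CPM in PB and 1.23, 0 and 0 in BM. In both genes the UMIs of the BM group came from batch 6 alone. Smpdl3b, encoding a membrane phosphodiesterase, had 125.2, 76.2, 80.5 and 86 CPM in PB and 0.411, 0 and 0 in BM, and AW112010 had 1117, 607.6, 626.9 and 702.4 against 2.98, 2.13 and 0.178. Filip1l had 101.8, 127.9, 87.5 and 87.0 CPM in PB, and 2831 UMIs over the PB plates stood against 1 over the BM plates, a ratio of 2114 in which the counting interval runs from 379.1 to 83520. Bcl2a1a, an anti-apoptotic gene, had 106, 128.3, 66 and 190.5 CPM in PB against 0.616, 0 and 0 in BM, and it shares most of its sequence with Bcl2a1b and Bcl2a1d, so its reads may be divided among them. Over the 413 genes called higher, 30 had 3 or fewer UMIs in BM, and for these a fitted fold change has no fixed size. The counting was not stated to use strand, so Cxcl10, Il1b, Slfn5, Irak3, Psmb8, Cebpb, Hspa1a, Zdhhc3 and Ethe1, whose exons overlap a gene on the other strand, may hold reads of that gene.

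**Figure D2:**
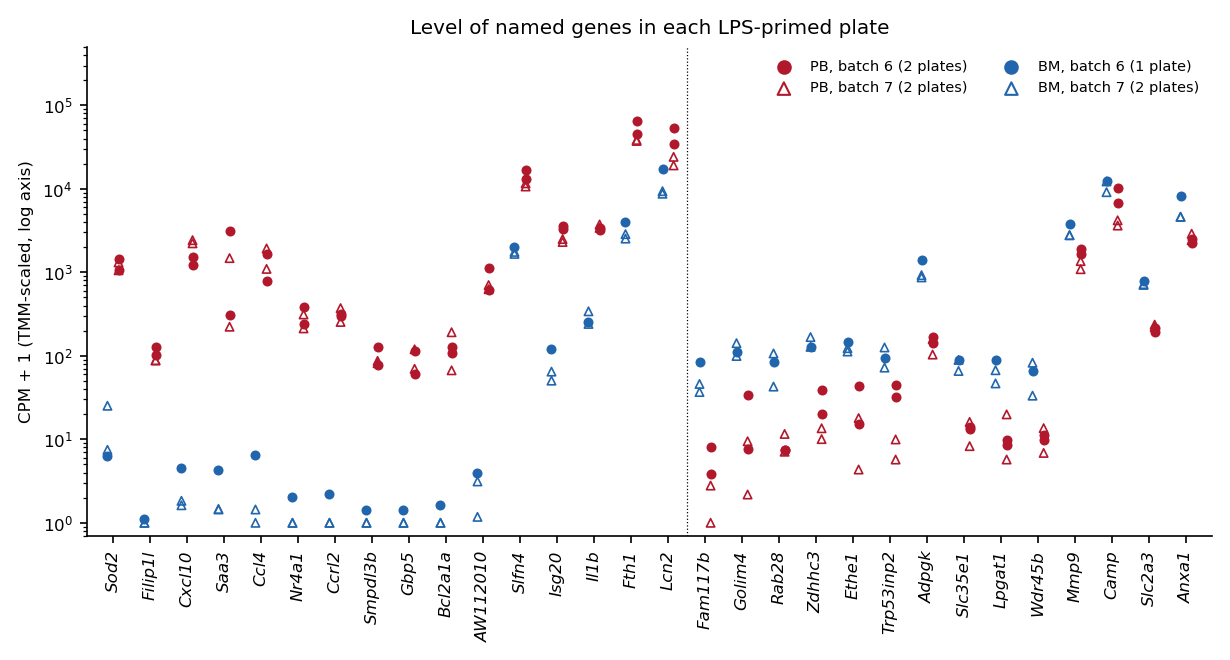
Level of 30 named genes in each LPS-primed plate, as CPM + 1 on a log axis, with PB in red, BM in blue, filled circles for batch 6 and open triangles for batch 7. Genes called higher in PB stand to the left of the dotted line and genes called lower to the right, and in Camp the PB and BM plates overlap while in Sod2 they lie from 1057 to 1439 CPM against 5.24 to 24.2.

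Interferon-stimulated genes, most of which encode antiviral proteins, were higher in PB almost without exception. Of 55 tested, 52 were called higher, against 5.13% of all genes, and 0 lower. The median log2 fold change was 3.62, and 49 were called under library size alone. Isg20, an RNA exonuclease, had 3546, 3288, 2307 and 2502 CPM in PB and 118.2, 63.7 and 49.4 in BM (5.18 ± 0.25, adjusted p = 3.23e-05). Rsad2, which encodes viperin, had 8547, 9919, 5570 and 5662 CPM in PB and 170.4, 77.0 and 184.9 in BM (5.56 ± 0.36). The plates of batch 6 were the higher ones among PB in both genes. Slfn5, a Schlafen family gene, was even across plates, at 822, 990.1, 772.4 and 896.8 CPM in PB and 35.3, 27.1 and 34.8 in BM (4.72 ± 0.25). Slfn4, a myeloid member of that family, was already abundant in BM at 2019, 1661 and 1756 CPM and reached 12967, 16834, 11635 and 10666 in PB (2.78 ± 0.20, adjusted p = 0.000119). The guanylate-binding protein gene Gbp2 had 2282, 2388, 1626 and 2068 CPM in PB and 10.98, 49.7 and 33.9 in BM (6.25 ± 0.55), and Gbp5, which had 59.5, 113.4, 118.6 and 68.9 CPM in PB, had 0.411, 0 and 0 in BM. Of the regulators, Irf7 showed a log2 fold change of 3.75 ± 0.29. Cd274, encoding the inhibitory ligand PD-L1, had 173.3, 140.8, 144.9 and 140.1 CPM in PB and 1.03, 0.741 and 1.33 in BM (7.14 ± 0.47). The 3 members not called were Gbp4, Oas1g and Slfn1, the last at 0.39 ± 0.25 (adjusted p = 0.444).

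Since these lists are named for transcription factors, the promoters of the called genes were searched for letters that such factors are known to recognise. The windows were 300 bases from 250 before the start of a gene to 50 after it, taken from RefSeq on GRCm38.p6, and both strands were searched for an interferon-stimulated response element (ISRE), GAAA followed by NN and GAAA, and a kB motif, GGGA followed by NNN and TCC, where N is any base. Of the 413 genes called higher, 325 had a window, of which 67 held the ISRE letters (20.6%) and 29 the kB letters (8.92%), with 6 holding both. Over the 6423 tested genes with a window, 281 (4.37%) and 406 (6.32%) held them, and over all 27025 windows the shares were 3.99% and 5.21%. Of the 54 matched genes called lower, 0 held the ISRE letters and 2 the kB letters. Within the interferon-stimulated list 23 of 44 windows held the ISRE letters, and within the NF-kB list 5 of 33 held the kB letters and 1 the ISRE letters. A match is a description of the letters and not a binding site, and a window without one, such as that of Sod2, only lacks these letters. Stretches are given from named genes called higher, with the motif in capitals and 12 flanking bases on either side, each 5′ to 3′ on the strand of the gene. They are Cxcl10 (chr5:92349027-92349114, minus strand), Gbp5 (chr3:142496757-142496878, plus), Slfn5 (chr11:82951935-82951968, plus), Saa3 (chr7:46715780-46715813, minus), B2m (chr2:122147536-122147582, plus), Isg20 (chr7:78913644-78913678, plus), Nfkbia (chr12:55492655-55492688, minus), Ccrl2 (chr9:111057565-111057598, minus) and AW112010 (chr19:11050615-11050648, minus).
Cxcl10, ISRE then kB: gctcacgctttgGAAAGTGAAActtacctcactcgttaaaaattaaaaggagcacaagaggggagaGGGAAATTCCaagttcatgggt
Gbp5, ISRE then kB: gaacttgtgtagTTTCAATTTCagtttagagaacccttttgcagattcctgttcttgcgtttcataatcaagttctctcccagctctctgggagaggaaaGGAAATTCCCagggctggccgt
Slfn5, ISRE: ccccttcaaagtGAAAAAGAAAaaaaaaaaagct
Saa3, ISRE: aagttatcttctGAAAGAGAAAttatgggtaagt
B2m, ISRE then kB: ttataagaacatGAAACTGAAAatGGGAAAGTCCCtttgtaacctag
Isg20, kB: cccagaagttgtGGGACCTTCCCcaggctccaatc
Nfkbia, kB: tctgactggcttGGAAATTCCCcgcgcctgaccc
Ccrl2, kB: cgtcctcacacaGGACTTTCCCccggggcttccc
AW112010, kB: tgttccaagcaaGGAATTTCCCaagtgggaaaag

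Cxcl10 and Gbp5, both among the 10 largest rises, carried an ISRE and a kB match in 1 window, Gbp5 in the reverse complement for both. In B2m and Isg20 the kB letters matched on both strands, at positions shifted by 1 base, so that the capitals there cover overlapping matches. Isg20, an interferon-stimulated gene by list, held kB letters and no ISRE letters in this window.

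Sod2, encoding the mitochondrial manganese superoxide dismutase (chr17:13200705-13210985, plus strand, NCBIM37), had 1439, 1074, 1057 and 1313 CPM in PB and 5.24, 6.48 and 24.2 in BM. The PB plates lay close together and all far above BM, with means of 1221 ± 186 (SD, n = 4) and 11.98 ± 10.6 (n = 3) and a log2 fold change of 6.85 ± 0.63 (adjusted p = 0.000277). By size of the log2 fold change Sod2 was at position 61 of the 413 genes called higher, of which 30 had 3 or fewer UMIs in BM. Of the 413, 356 had at least 50 CPM and a UMI in at least 20% of cells of every PB plate, with no overlap of plates in either batch. Among these 356 Sod2 was at position 23. Within antioxidant and metal defence, 4 of 27 genes were higher, against 5.13% of all genes, and 0 lower, and the median was 0.82. Library size alone gave 3 higher and 0 lower in this list, with a median of 0.28. Fth1, the ferritin heavy chain that stores iron in oxidised form, had 65293, 45955, 37446 and 38526 CPM in PB and 4053, 2865 and 2535 in BM (3.80 ± 0.23, adjusted p = 5.05e-05). Every PB plate lay far above the highest BM plate. Ftl1, the ferritin light chain, had a log2 fold change of 0.67 ± 0.20 (adjusted p = 0.0833). Mt1, a metallothionein, had 161.5, 51.1, 232 and 67.3 CPM in PB and 0.308, 0.833 and 0.0888 in BM (8.33 ± 0.98), and in 3 PB plates 2 cells held over 50% of its UMIs. Prdx5, a peroxiredoxin, rose by 1.14 ± 0.20 on the log2 scale (adjusted p = 0.00909; 0.0821 with library size alone). Sod1, encoding the copper-zinc superoxide dismutase of the cytosol, and Cat, encoding catalase, were not called, at 0.10 ± 1.02 and 1.77 ± 2.46 and means under 30 CPM. Of 8 NADPH oxidase genes, which encode the enzyme complex that makes superoxide, 0 were called in either direction, against 5.9% of all genes. The median was 0.30, and with library size alone 2 were lower and 0 higher with a median of -0.25. Cybb, its catalytic subunit, had 3337, 4627, 2090 and 2378 CPM in PB and 2354, 2105 and 2269 in BM (0.31 ± 0.23, adjusted p = 0.509).

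Granule genes did not move as 1 group, and their counts stand beside 5.13% higher and 0.771% lower over all genes. Of 20 specific granule genes, 3 were higher in PB and 2 lower with a median of -0.30, and with library size alone 2 were higher and 8 lower. Lcn2, encoding the siderophore-binding protein lipocalin-2, had 54171, 34133, 19086 and 24146 CPM in PB and 17506, 8737 and 9376 in BM (1.29 ± 0.23, adjusted p = 0.00865), and all PB plates were above all BM plates. Hp, haptoglobin, had 10220, 7289, 4160 and 5438 CPM against 2165, 1920 and 1896 (1.60 ± 0.24). Hp and Lcn2 are also made by liver. Both were higher in the PB plates of batch 6 than in those of batch 7, and hepatocyte markers were lower in batch 6. The part of liver transcripts in either gene was not tested, and the batches also differed in the clusters of their cells. Wfdc21 was the third called higher, at 0.90 ± 0.18 (adjusted p = 0.0206; 0.172 with library size alone). In the other direction, Camp, which encodes the antimicrobial peptide CRAMP, had 10360, 6807, 3631 and 4194 CPM in PB and 12264, 9122 and 12272 in BM (-1.09 ± 0.27, adjusted p = 0.0493). Its PB plate 1 of batch 6 lay within the BM range, so the groups overlapped. Anxa1, an annexin held in granules and induced by glucocorticoids, had 2505, 2256, 2420 and 2898 CPM in PB and 8136, 4625 and 4616 in BM (-1.20 ± 0.23, adjusted p = 0.0144). Ngp (-0.36 ± 0.30), Ltf (-1.19 ± 0.36, adjusted p = 0.0917) and Chil3 (0.05 ± 0.32) were not called, and all were lower in the PB plates of batch 7 than in those of batch 6. Of 13 gelatinase granule and secretory vesicle genes, Mmp9 alone was called, at 1895, 1656, 1089 and 1362 CPM in PB and 3813, 2787 and 2781 in BM (-1.15 ± 0.18, adjusted p = 0.00463), and the list median was -0.05. Retnlg, at 28355, 19399, 25810 and 31957 CPM in PB, overlapped with 38227, 21557 and 19777 in BM (adjusted p = 0.998). Of 10 azurophil granule genes only Srgn was called, which encodes the granule proteoglycan serglycin, at 8101, 7405, 8746 and 10185 CPM in PB and 1935, 1175 and 1083 in BM (2.62 ± 0.27). The median of the azurophil list was -1.83, and with library size alone 1 was higher and 2 lower, with a median of -2.40. Prtn3, a protease of that granule, was near the limit of detection at under 13 CPM in every plate.

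Adhesion and trafficking genes were divided. Of 27 tested, 5 were higher, among them Icam1, Rhob, Ptafr and Cd47, and 1 lower (Ly6g), with a median of 0.49. The shares over all genes were 5.13% higher and 0.771% lower. With library size alone 3 of the list were higher and 4 lower. Cd47, whose product restrains phagocytosis by macrophages, had 2164, 1620, 1027 and 1170 CPM in PB and 541.9, 417.2 and 421.3 in BM (1.55 ± 0.22). Every PB plate exceeded every BM plate. Ly6g, the neutrophil surface marker, had 367.9, 416.7, 283.1 and 341.4 CPM in PB and 861.4, 659.9 and 613 in BM (-1.07 ± 0.20, adjusted p = 0.0116). The receptors that set retention and release were not called. Cxcr2 had 1599, 1384, 2253 and 2188 CPM in PB and 1509, 1638 and 1655 in BM (0.25 ± 0.19), and Cxcr4, below 50 CPM in every plate, had a log2 fold change of -0.68 ± 0.92 (adjusted p = 0.75). Csf3r, the G-CSF receptor, stood at 2951 and 2901 CPM in the PB plates of batch 7 alone, against 965.8 and 999.6 in those of batch 6 and 904.6, 1193 and 970 in BM (0.88 ± 0.28, adjusted p = 0.104).

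Sensing genes were higher in PB in 11 of 28 cases and lower in 0, with a median of 1.25. Over all genes 5.13% were higher and 0.771% lower. With library size alone 7 sensing genes were higher and 0 lower, with a median of 0.71. Cd14, the LPS co-receptor, had 1728, 1307, 1224 and 1607 CPM in PB and 15.9, 54.7 and 53.5 in BM (5.38 ± 0.46, adjusted p = 0.000208). Tlr4, the receptor itself, had 57.3, 111.3, 81.5 and 83.1 CPM in PB and 76.6, 67.1 and 83.5 in BM, and the groups overlapped (0.13 ± 0.37, adjusted p = 0.889). Downstream of it, Irak3, which encodes the kinase-dead inhibitor IRAK-M, had 422, 493.4, 341.4 and 331.4 CPM in PB against 35.7, 18.6 and 12.96 in BM (4.11 ± 0.31). Trem1, an amplifying receptor, had 586.4, 900.5, 550.5 and 426.9 CPM against 68.3, 74.9 and 79.4 (2.96 ± 0.30). Of 27 immune regulators and inhibitory receptors 13 were higher and 0 lower with a median of 1.76, Cd274, Nos2, Socs1 and the decoy receptor gene Il1r2 among them. Of these 27, 9 were higher and 0 lower with library size alone, with a median of 1.20. Il1r2 had 3312, 2999, 1792 and 2353 CPM in PB and 387.9, 312.4 and 165.4 in BM (3.08 ± 0.28).

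Class I antigen presentation genes were higher in 11 of 20 cases, against 5.13% of all genes, and lower in 0. The median was 2.32, and library size alone gave 10 higher and 0 lower with a median of 1.76. B2m, the invariant light chain of class I molecules, had 10419, 7209, 7270 and 9392 CPM in PB and 2842, 1362 and 1263 in BM (2.24 ± 0.28, adjusted p = 0.00137). The peptide transporter gene Tap1 (3.01 ± 0.31) and the immunoproteasome gene Psmb8 (3.24 ± 0.28) rose with it, as did the heavy chain gene H2-K1 (2.61 ± 0.22), while H2-D1 missed the threshold (1.20 ± 0.31, adjusted p = 0.0586). Survival and death genes were higher in 13 of 25 cases and lower in 0, with a median of 1.37. With library size alone 10 of the 25 were higher and 0 lower, with a median of 0.82. The list held both directions of action. The anti-apoptotic gene Mcl1 had 888, 1357, 1545 and 1447 CPM in PB and 523.2, 733.5 and 783.5 in BM (1.03 ± 0.22, adjusted p = 0.0225; 0.226 with library size alone). The pro-apoptotic gene Bcl2l11, encoding BIM, had 67.7, 45.1, 142.3 and 97.6 CPM against 0.719, 3.43 and 0.266 (6.10 ± 0.91), and the death receptor gene Fas 223.5, 334.6, 388.5 and 309.8 against 31.9, 31.5 and 78.1 (2.85 ± 0.39).

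Among 19 glucocorticoid-responsive genes, 7 were higher and 1, Anxa1, was lower, with a median of 2.49. Library size alone gave 6 higher and 1 lower, with a median of 1.94. Dusp1, the phosphatase that switches off MAP kinases, had 2310, 2705, 2095 and 2306 CPM in PB and 104.8, 109.7 and 81.9 in BM (4.54 ± 0.23, adjusted p = 3.23e-05). Tsc22d3, which encodes GILZ, a classic glucocorticoid target, had 345, 520.6, 452.9 and 452.2 CPM in PB against 83.8, 35.8 and 18.3 in BM (3.34 ± 0.45). Nfkbia is on this list and on the NF-kB list. Of 26 maturation and stress transcription factors, 7 were higher and 0 lower with a median of 1.01: Fos, Cebpb, Klf2, Xbp1, Junb, Mxd1 and Nfe2l2. With library size alone 6 of the 26 were higher and 0 lower, with a median of 0.45. Fos, an immediate-early gene, had 216.6, 340.9, 624 and 740.7 CPM in PB against 88.7, 99.6 and 99.8 in BM (2.31 ± 0.32), and Junb had 555.5, 521.9, 1237 and 1075 against 216.5, 254.6 and 323.1 (1.72 ± 0.24). For both, the PB plates of batch 7 were higher than those of batch 6. Of 17 coagulation and fibrinolysis genes, Thbs1 and Fgl2 were higher and 0 lower, with a median of 1.90, against 5.13% of all genes called higher. With library size alone 1 of the 17 was higher and 0 lower, with a median of 1.32. The list holds plasma protein genes that liver makes, of which Plg, Proc and Hrg had 44, 26 and 44 UMIs over the PB plates and 0 over BM, while hepatocyte markers reached 1342 CPM in PB and at most 95.8 in BM, and their part in the median was not tested. Thbs1, thrombospondin-1, had 2808, 2116, 1445 and 2786 CPM in PB and 364.1, 120.4 and 173.6 in BM (3.39 ± 0.36). Fgl2, encoding a prothrombinase-like protein, had 195.6, 308, 828.3 and 619.1 CPM in PB and 136.6, 101.3 and 85.5 in BM (2.07 ± 0.45, adjusted p = 0.0279), with the batch 7 plates highest.

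Genes lower in PB were fewer, at 0.771% of all genes against 5.13% higher. Among the 62, the smallest adjusted p was that of Adpgk, which encodes an ADP-dependent glucokinase and had 143.2, 166.7, 102.5 and 158 CPM in PB and 1387, 868 and 923.3 in BM (-2.94 ± 0.24, adjusted p = 0.000168). Every PB plate lay far below the lowest BM plate. Adpgk and the other large falls given below were chosen with no overlap of plates in either batch, so this is no separate result. Slc2a3, the glucose transporter GLUT3, had 213.8, 193, 220.5 and 235.2 CPM in PB and 785.5, 705.3 and 721.9 in BM (-1.77 ± 0.20, adjusted p = 0.000795). Of 23 glycolysis genes, Slc2a3, Ldha (-1.28 ± 0.29) and Hk3 (-1.11 ± 0.27, adjusted p = 0.0437) were lower and Pfkfb3, an activator of phosphofructokinase, was higher (2.37 ± 0.52, adjusted p = 0.0281), with a median of -0.05. Library size alone gave 7 lower and 0 higher. Pkm and Gapdh were not called, at 0.00 ± 0.22 and 0.13 ± 0.24. The other large falls with at least 50 CPM in BM were Fam117b (-4.88 ± 1.12), Golim4 (-3.83 ± 0.90), Rab28 (-3.37 ± 0.59), Zdhhc3 (-3.17 ± 0.51), Ethe1 (-3.08 ± 0.67), Trp53inp2 (-2.95 ± 0.69), Slc35e1 (-2.78 ± 0.51), Lpgat1 (-2.73 ± 0.66) and Wdr45b (-2.68 ± 0.64). Of these, Zdhhc3, a palmitoyltransferase gene, was called with each plate left out in turn, and Lpgat1 and Wdr45b were called in 1 of 7 such fits. Mki67, the proliferation antigen, was the only call among 16 cell cycle genes, at 8.71, 3.41, 3.91 and 4.33 CPM in PB and 39.8, 60.6 and 44.9 in BM (-3.30 ± 0.76, adjusted p = 0.0367), and over 50% of its UMIs in each BM plate came from 2 cells. Such concentration in 2 cells of some plate was found for 21 of the 62 lower genes and 103 of the 413 higher genes. It was not counted over all tested genes, so these counts are not shown to be particular to called genes. Myb, a progenitor transcription factor, had 1 UMI over the PB plates and 430 over BM, a BM to PB ratio of 575.9 with a counting interval of 102.8 to 22800.

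**Figure D3:**
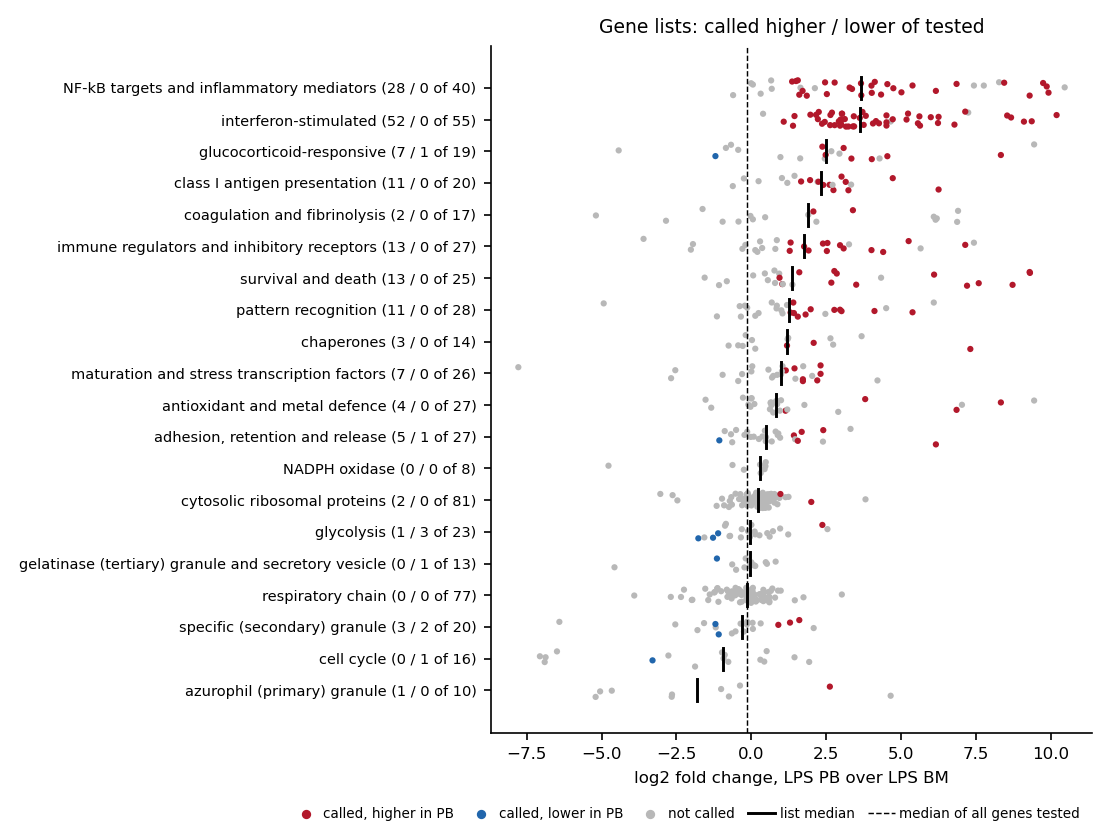
Log2 fold change of LPS-primed PB over BM for each tested member of 20 gene lists, with genes called higher in red, called lower in blue and not called in grey, list medians as black bars and the median of all genes, -0.15, as a dashed line. Interferon-stimulated and NF-kB lists lie furthest to the right with medians of 3.62 and 3.67, and ribosomal and respiratory chain genes centre near 0.

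The respiratory chain and ribosomal protein lists held few calls. Of 77 respiratory chain genes, 0 were called, against 5.9% of all genes, with a median of -0.16 that was -0.71 with library size alone. Of 81 cytosolic ribosomal protein genes, Rps9 (0.97 ± 0.18) and Rps20 (2.00 ± 0.40) were higher, against 5.13% of all genes, and 0 lower. The median was 0.23 (-0.32 with library size alone), and the calls for both genes were lost with library size alone (adjusted p = 0.16 and 0.0765). Of 14 chaperone genes, 3 were higher (Hspa1a, Hspa5 and Hspa8), against 5.13% of all genes, with a median of 1.20. With library size alone 1 of the 14 was higher and 0 lower, with a median of 0.64. Hspa1a, the inducible heat shock protein, was present in the PB plates of batch 6 at 74.1 and 137.7 CPM, against 0.815 and 0.394 in those of batch 7 and 0.513, 0 and 0 in BM. The call for Hspa1a (adjusted p = 0.00363) thus rests on 1 batch, and 2 cells held at least 60% of its UMIs in every PB plate.

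Whether the tissues already differed in the same way without LPS was asked with the 4 PB and 5 BM plates of PBS-primed cells, in 1 model of the 16 plates. PBS-primed PB and BM differed in 684 of 8845 genes (7.73%), and the contrast after LPS differed from that after PBS in 296 genes (3.35%), 241 of them with a larger PB over BM value after LPS and 55 with a smaller one. This split turned with the scaling: with library size alone the median difference of the contrasts over all genes went from -0.15 to -1.22, and 107 genes had a larger and 448 a smaller contrast. The PBS contrast had 357 genes higher in PB and 327 lower, and 746 and 211 with library size alone. Of the 413 genes higher in PB after LPS, 142 had a larger contrast than after PBS, 121 were also higher in PBS-primed PB and 21 were lower there. Of the 62 lower genes, 30 were also lower in PBS-primed PB and 0 higher. For the other genes a difference between the contrasts was not shown, which does not make them equal.

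Specific granule genes had the plainest change of contrast. After PBS, 18 of 20 were lower in PB and 0 higher, with a median log2 fold change of -4.16, and for 15 of the 20 the contrast after LPS was larger by the test of the difference, with a median difference of 4.17 (12 larger and 0 smaller with library size alone). Camp had 24.1 to 164.8 CPM in PBS-primed PB and 13587 to 22491 in PBS-primed BM (-8.09, adjusted p = 3.75e-12), beside -1.09 after LPS. Ngp had 43.0 to 308.6 CPM in PBS-primed PB and 18054 to 34553 in PBS-primed BM, while LPS-primed PB plates held 8667 to 33332 and LPS-primed BM plates 14114 to 21670. The 2 tissues were thus many times apart in both genes after PBS and overlapped after LPS. Lcn2 went from lower in PB after PBS (-3.77) to higher after LPS (1.29), a difference of 5.11 (adjusted p = 6.31e-11). Cybb likewise stood at -4.30 after PBS and 0.31 after LPS (difference 4.56, adjusted p = 7.59e-09). Ly6g was lower in PB under both treatments, at -4.60 and -1.07, with a difference of 3.68 (adjusted p = 0.00163). Adpgk was another gene lower in PB in both, at -7.56 after PBS and -2.94 after LPS (difference 4.57).

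Inflammatory genes divided into those called different between the tissues under both treatments and those not called after PBS. Il1b was higher in PBS-primed PB by 3.60 (adjusted p = 2.1e-06) and in LPS-primed PB by 3.66, and the difference between these was -0.01 (adjusted p of 1). Klf2 (2.22 and 2.20), Srgn (1.81 and 2.62), Fos (2.98 and 2.31) and Nfkbiz (1.70 and 1.85) were also higher in PB under both, with no difference of the contrasts called. Sod2 had a log2 fold change of 0.60 after PBS (adjusted p = 0.708), Nfkbia one of 0.24, Il1rn one of 0.16 and Slfn4 one of 0.04, and for all 4 the contrast was larger after LPS, by 6.02, 3.78, 3.80 and 2.71. With library size alone these 4 differences were called too, at 4.99, 2.67, 2.71 and 1.59, and Nfkbia was then also called higher after PBS (0.75, adjusted p = 0.03). Over the 55 interferon-stimulated genes 22 were higher in PBS-primed PB and 1 lower, and 27 had a larger contrast after LPS (15 larger and 1 smaller with library size alone). Over the 40 genes of the NF-kB list 13 were higher after PBS and 1 lower with a median of 1.16, and 14 had a larger contrast after LPS (7 larger and 1 smaller with library size alone). Mxd1, which encodes a MYC antagonist, had -0.17 after PBS and 1.44 after LPS (difference 1.63, adjusted p = 0.000402; 0.198 with library size alone). Slc2a3 moved the other way, from 0.18 after PBS to -1.77 after LPS (difference -1.99, adjusted p = 0.000531).

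**Figure D4:**
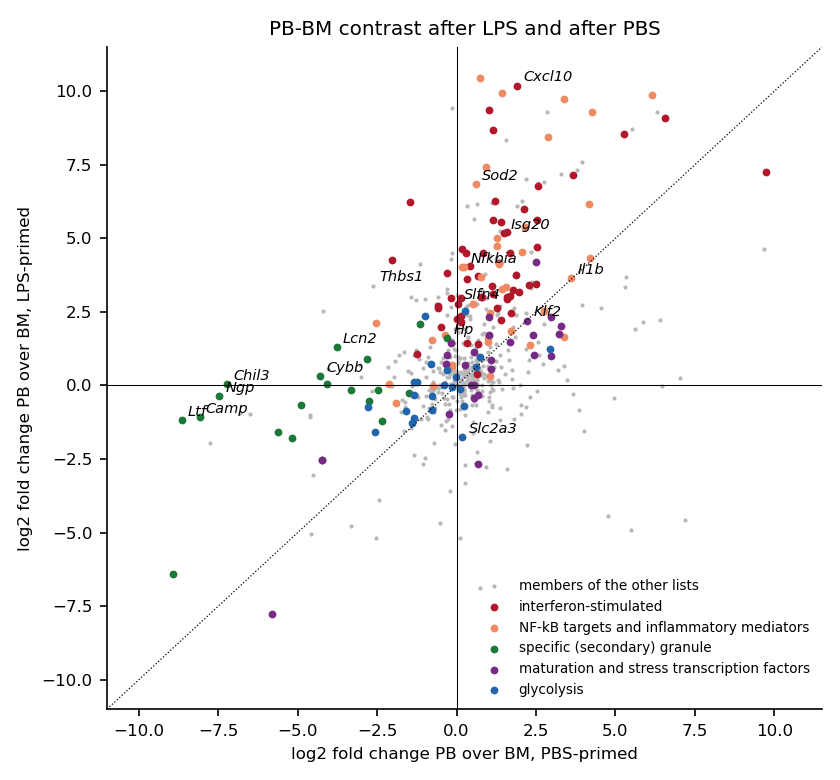
Log2 fold change of PB over BM after LPS (vertical, 7 plates) against the same after PBS (horizontal, 9 plates in the 16-plate model) for members of the gene lists, with 5 lists coloured and the line of equal values dotted. Specific granule genes such as Camp, Ltf and Ngp lie far left near the horizontal axis, interferon-stimulated genes above the line, and Il1b and Klf2 on it.

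The plates also differed in the make-up of their cells. In the authors' clusters, 92.3% to 98.9% of the cells of each LPS-primed BM plate were in cluster 0. LPS-primed PB cells of batch 6 were in cluster 2 (98.9% and 100% of the plates), whereas in batch 7 46.2% and 48.8% were in cluster 2 and 52.7% and 40.7% in cluster 1, the cluster that holds PBS-primed PB cells. Within these 2 plates, levels scaled to library size are given for the cells of each cluster as a description, since the clusters were made from the same genes. Sod2 stood at 378.2 and 137.9 CPM in cluster 1 cells and at 1512 and 1603 in cluster 2 cells. Cxcl10 stood at 816.8 and 295.6 CPM in cluster 1 and at 3171 and 2953 in cluster 2. Lcn2 stood at 10420 and 6618 CPM in cluster 1 and at 24500 and 27200 in cluster 2. These 3 genes were higher in cluster 2 cells of both plates, and cluster 1 cells still lay above all BM plates for Sod2 and Cxcl10. Il1b (4803 and 4321 CPM in cluster 1, 2710 and 2420 in cluster 2), Fgl2 (1428 and 1192, then 322.3 and 302.3) and Cxcr2 (2777 and 2542, then 1686 and 1617) were higher in cluster 1 cells.

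Shares of cells with a transcript, after thinning every cell to 5000 UMIs, show how widely these levels were carried. Sod2 was detected in 88.4%, 74.7%, 69.2% and 67.4% of PB cells and in 2.27%, 2.20% and 3.26% of BM cells, where the exact Clopper-Pearson 95% intervals reached no lower than 56.5% in PB and no higher than 9.23% in BM. Saa3 was detected in 25.3%, 95.6%, 18.7% and 54.7% of PB cells, so that its plates differed in how many cells carried it, and in 0 of 91 and 0 of 92 cells of the batch 7 BM plates (upper limits 3.97% and 3.93%). Ccl4 was in 30.8% to 52.6% of PB cells and at most 2.27% of BM cells. In the other direction, Adpgk was in 12.1% to 33.0% of PB cells and 78.4% to 88.0% of BM cells, and Slc2a3 in 24.2% to 38.5% and 80.7% to 91.3%. Intervals cover counting error only.

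**Figure D5:**
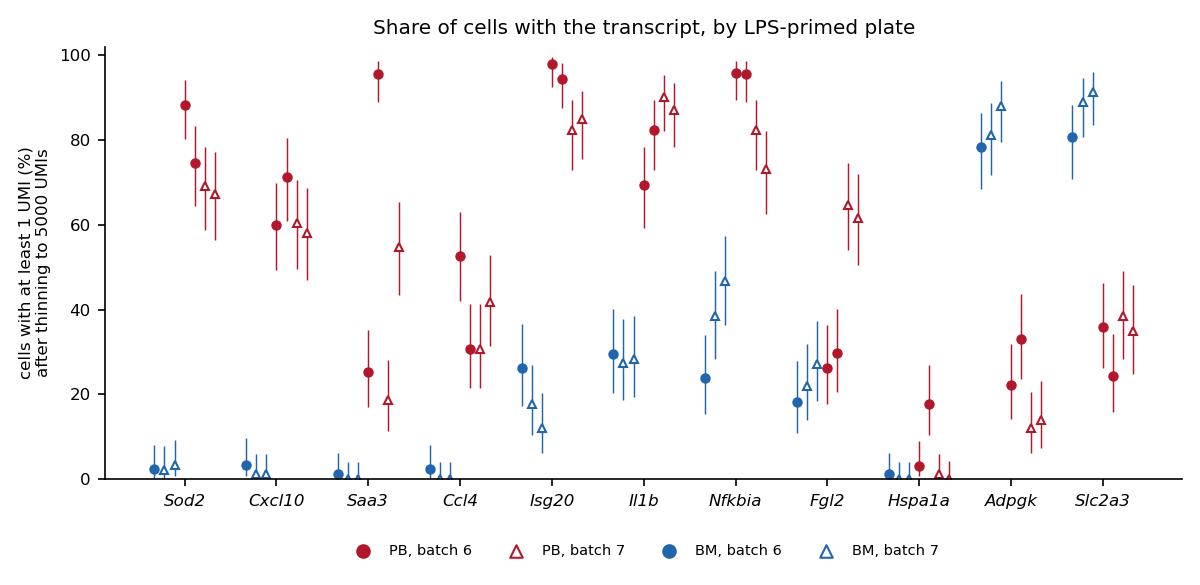
Share of cells with at least 1 UMI after thinning to 5000 UMIs, for 11 genes in each LPS-primed plate, with PB in red, BM in blue, filled circles for batch 6 and open triangles for batch 7, and bars for the exact 95% interval. Sod2, Cxcl10 and Ccl4 are found in few BM cells, Saa3 varies from 18.7% to 95.6% between PB plates, and Adpgk and Slc2a3 are found in more BM than PB cells.

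Hepatocyte markers had the highest summed level of the other cell types in the PB plates of batch 7, but not in every plate. In the PB plates of batch 7, 64 of 91 and 66 of 86 cells had over 0.1% of their UMIs from the hepatocyte list, against 4 of 95 and 3 of 91 in those of batch 6 and 0, 1 and 3 cells in the BM plates. Of the genes expressed in liver that were called higher, Ttr, Apoc1, Mup3, Serpina1e, Serpina3k and Fabp1 had 0 to 2 UMIs over the BM plates. Without the 137 PB and 4 BM cells over that limit, 372 genes were called, 334 higher and 38 lower.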

How the data were processed

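Per the file headers and the study's methods, the authors trimmed reads with Cutadapt 1.15, aligned them to mm9 with STAR 2.6.0a, removed duplicates by UMI and counted uniquely mapped reads per gene with HTSeq 0.11.2. The gene annotation and the strand setting are not given in the sources used here. The deposited table holds raw UMI counts (10970 genes, 1421 cells) beside the authors' annotation of each cell (batch, group, cluster and a fraction of ERCC spike-ins, deposited per cell). The table has 0 rows of spike-ins or mitochondrially encoded genes.

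UMIs were summed per plate over genes seen in at least 10 cells (9919), filtered with filterByExpr (8045 genes) and fitted with edgeR 4.0.16 in R 4.3.3 (TMM, glmQLFit, glmQLFTest, batch as a term, two-sided Benjamini-Hochberg adjusted p below 0.05). The standard error is the log2 fold change over the root of its F. The 16-plate model had the 4 groups and batch as terms. A level is TMM-scaled CPM, over the 7 plates or, for PBS-primed plates, over 16. Batch 6 had 1 BM plate, and 2 sets of columns that share the number 3 among its PBS-primed BM plates were taken as 1 plate. Between 5885183 and 12020616 UMIs per plate with a common dispersion of 1.10 set the precision. On simulated counts of 7602 genes for LPS-primed PB against BM, the test recovered 19.4% of 4-fold, 44.8% of 16-fold and 72.7% of 64-fold changes, with 4 of 95 calls wrong. Plates of 1 group differed far beyond counting error, by a chi-square per degree of freedom of at least 60.1, so no plate's counts were a copy of another's, which does not show that they come from separate animals.

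Named genes were Sod2, the 10 largest rises and falls among called genes with at least 50 CPM and a UMI in at least 20% of cells (not thinned) of every plate of the higher tissue and no overlap of plates in either batch, and of each list the most abundant member and the 2 with the smallest p. Further list members and genes in the same paragraphs were named after their values were seen. The gene lists and comparisons were chosen with earlier results of these data known. Shares of cells have exact Clopper-Pearson 95% intervals. Doublets were not called, since cells were picked singly, and of 95 well barcode names in the 7 plates 74 occurred in all of them. Promoters are from RefSeq (GRCm38.p6) and gene positions from GENCODE vM1 on NCBIM37. Alternatives were DESeq2 1.42.0, limma 3.58.1 (voom), other scalings, filters, plates, batch terms and thinned cells, and, added after the data were seen, the removal of cells with hepatocyte markers and the PBS contrast with library size alone. Cells with over 1% of UMIs from another lineage were to be dropped as an alternative, and 0 of 634 were. Results for a few genes are not reported here.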

Additional observations from a re-analysis of the deposited data

Results flagged for a closer look

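In 35 of the named genes the difference between PB and BM after LPS was not that after PBS, by the contrast of both differences in the 16-plate edgeR model. Each value is the log2 contrast after LPS minus that after PBS, followed by its Benjamini-Hochberg adjusted p. Of the 35, 21 were called the same way with library size alone, 14 lost their call and 0 changed sign. Inflammatory and immediate-early genes were Cxcl10 (8.26, 3.77e-06), Saa3 (8.52, 5.26e-05), Ccl4 (4.49, 0.0125), Ccl3 (5.55, 0.00212), Nr4a1 (5.68, 0.0249), Ccrl2 (6.75, 0.00531), Nfkbia (3.78, 1.49e-07), Il1rn (3.80, 2.75e-07), Bcl2a1a (7.99, 0.00485), Smpdl3b (7.42, 0.0215) and Dusp1 (2.21, 0.0215). Interferon-stimulated and class I genes were Slfn4 (2.71, 2.17e-05), Isg20 (3.74, 0.000821), Gbp5 (8.35, 0.0167), B2m (1.83, 0.000547), H2-K1 (1.71, 0.0017) and Psmb8 (2.46, 0.000667). Granule, oxidase and receptor genes of mature cells were Lcn2 (5.11, 6.31e-11), Hp (2.13, 0.00325), Cybb (4.56, 7.59e-09), Serpinb1a (3.69, 3.85e-05), Retnlg (2.19, 0.000312) and Fpr1 (1.79, 0.0279), and their contrasts after PBS were all negative on the TMM scale (that of Hp was 0.17 with library size alone), so that the larger value stands for a smaller gap or a turned one. Of the remaining genes with a positive difference, Cd14 (2.94, 0.016), Irak3 (5.27, 6.03e-05), Trem1 (2.09, 0.00451), Cd47 (1.72, 0.0287), Mxd1 (1.63, 0.000402), Sod2 (6.02, 0.00135), Fth1 (2.95, 6.95e-08), Mt1 (7.31, 0.035), Thbs1 (6.02, 0.000112), Pfkfb3 (3.52, 0.0451) and Adpgk (4.57, 2.43e-05), Adpgk was lower in PB under both treatments. Among the 35, Slc2a3 was the 1 gene with a negative difference (-1.99, 0.000531). With library size alone 8 further named genes were called with a negative difference and 0 with a positive one, among them Fam117b (-4.48), Mki67 (-4.37), Rab28 (-3.16), Mcl1 (-1.48), Lilr4b (-1.44), Cxcr2 (-1.33) and Mmp9 (-1.07). The 14 genes that lost their call with library size alone were Ccl4, Nr4a1, Smpdl3b, Hp, Fpr1, Cd47, Mxd1, Dusp1, Mt1, B2m, H2-K1, Cd14, Trem1 and Pfkfb3.

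In 2 named genes 1 of the 4 LPS-primed PB plates stood apart from the others, by Dixon's gap on the log2(CPM + 1) scale. Rab28 had 10.6 CPM in PB plate 1 of batch 7 and 6.10, 6.43 and 6.5 in the others. Cd274 had 173.3 CPM in PB plate 1 of batch 6 and 140.1 to 144.9 in the others. Chance flags about 1 in 20 groups of this size, and 2 genes stand among 78 named ones.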

How the results depend on the processing

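Calls were 475, with 413 higher and 62 lower in PB, and the count of lower genes moved most. DESeq2 called 1236 genes (719 higher, 517 lower) and limma-voom 875 (588 and 287). Library size alone gave 269 higher and 219 lower. Lower genes were 131 with at least 20 UMIs in 3 plates, 145 with all plates in 1 model, 95 without a batch term, 21 within batch 7 and 38 without the cells that carried hepatocyte markers. No label says whether equal plate numbers pair the plates of the tissues. The deviations of equal numbers in batch 7 had r = -0.026. This is 1 value from 2 plates of each tissue, so it cannot decide whether they are paired. With a replicate block 735 genes were called, 158 of them lower. Leaving out each plate gave 308 to 467 calls (308 and 315 without a BM plate of batch 7), 288 to 395 higher and 19 to 76 lower, lowest for the lower genes without BM plate 1 or 2 of batch 7 (19 and 20) or the BM plate of batch 6 (22), and 37 without PB plate 1 of batch 6. Across all 7 of these fits 253 higher and 10 lower genes kept their call. The log2 fold change of Sod2 was 6.27 to 7.70 over them and was called in each. The difference of the contrasts was called in 670 genes by DESeq2, 555 with library size alone, 133 within batch 7 and 183 to 269 with a plate left out (183 and 193 without a BM plate of batch 7), from 296. The cause of these changes was not tested, and where plates or cells were left out their number also fell.

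Directions turned for genes near 0. Pkm (0.00) was -0.04 with DESeq2, -0.05 with voom, -0.56 with library size alone, -0.04 with RLE scaling, -0.0027 without a filter, -0.02 with at least 20 UMIs, -0.28 within batch 6, -0.27 with thinned cells, -0.14 without hepatocyte-marker cells and -0.14 to 0.22 with a plate left out, below 0 without BM plate 1 (-0.06) or 2 (-0.04) of batch 7, PB plate 1 of batch 6 (-0.10) and PB plates 1 (-0.01) and 2 (-0.14) of batch 7. Retnlg (-0.0018) was 0.0027 with all plates in 1 model, 0.48 within batch 7, 0.17 with the replicate block, 0.02 without hepatocyte-marker cells and -0.20 to 0.48 with a plate left out, 0.48 without the BM plate of batch 6 and 0.13 without PB plate 2 of batch 6. With library size alone Cxcr2 was -0.30, Cybb -0.24, Anxa2 -0.10 and Lilr4b -0.18. Lilr4b was -0.06 within batch 6, and Cxcr2 -0.12 with thinned cells. Median UMIs per cell were 6528.2 higher in PB, and between -6965.8 and 15212.8 with a plate left out, the sign turning without PB plate 1 of batch 6. The difference in genes per thinned cell, -99.7, was -118.7 to -73.3. The alternatives were run on the 78 genes named by rule, of which the others kept their direction, and were not run one by one on further genes in the text. Calls were less stable than directions. Within batch 7, 13 named genes lost their call and 1 gained one. These counts were 7 and 5 with library size alone, 8 and 2 with thinned cells, and 9 and 1 without hepatocyte-marker cells. With a plate left out 3 to 14 lost their call (13 or 14 without a BM plate) and 0 to 2 gained one. With DESeq2 these counts were 0 and 7. With 3 or 4 plates a group, most 4-fold changes lie below what the test recovers.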
